A study of Mus musculus with 9 samples.

Results

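Pik3ip1, Inpp4b, Inpp5d, Pik3r1, Pik3cd, Tsc1, Tsc2, Ddit4 and Sesn1 are 9 genes that act on phosphoinositide 3-kinase (PI3K) or on mTORC1, the growth kinase complex that PI3K feeds. They were chosen by gene symbol as brakes on PI3K and mTORC1, with earlier results of these data known. They are 9 of the 24060 genes in the table of values. The name brake does not describe Pik3cd, which encodes the catalytic subunit p110δ of PI3K itself, and it describes only part of what the regulatory subunit encoded by Pik3r1 does. All 9 had a TPM above 1 in every library, so each was among the 11330 genes tested whichever clone is considered.

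In T cells, antigen and costimulatory receptors recruit class I PI3K to the membrane, where it makes the lipid PIP3, and PIP3 brings the kinase AKT to its activators. AKT then inhibits the TSC complex, which otherwise keeps the small GTPase Rheb, and with it mTORC1, switched off, and AKT also keeps FoxO transcription factors out of the nucleus. Cells limit this route with inhibitors of the kinase, with phosphatases that degrade PIP3 and its product, and with stress and amino acid sensors that act on mTORC1 from the side.

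The study set CD8 T cells of 3 clones side by side to ask how the affinity of the T cell receptor for its antigen shapes the cell. R7-I, R7-II and R7-III are transnuclear mouse lines on a Rag2-proficient BALB/c background, each made from the nucleus of a single T cell that recognises the ROP7 antigen of Toxoplasma gondii, so each line stands for 1 receptor and cannot be told apart from other features of its founder cell. In the study's ordering, from measurements on purified proteins, R7-I has the highest affinity, R7-III an intermediate one and R7-II the lowest. Its membrane-anchored measurement gave similar affinities for R7-I and R7-III and a lower one for R7-II. Splenocytes of each line were exposed to the ROP7 peptide (10 µM) with IL-2 (10 ng/ml) overnight, and CD3+ CD8+ cells that bound the H-2Ld ROP7 tetramer were sorted for poly(A) RNA sequencing. There were 3 biological replicates per clone, 9 libraries in all, every one of peptide-treated cells. Neither the age of the mice nor whether replicates came from separate mice is given in the sources used here, so the p-values measure the spread between these libraries. Levels are given as TPM, a share of all transcripts corrected for gene length, which keeps no read counts. The study's methods give only a typical depth, and the table gives none for each library, so no counting interval is given.

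The levels of the 9 genes followed 1 pattern, in which R7-II stood above both other clones. In 9 of 9 genes each of the 3 R7-II libraries had a higher TPM than each of the other 6 libraries, an arrangement that 41.7% of all genes tested also showed. With limma on log2(TPM + 1), adjusted over all genes tested and called at an adjusted p of at most 0.01, 9 of 9 passed with R7-II above R7-I, where 40.6% of all genes tested were called higher. Against R7-III the count was likewise 9 of 9, beside 35.6% of all genes tested. These comparisons share the R7-II libraries. As the 9 genes were chosen with earlier results of these data known, the counts describe them and are not an independent test. The median log2 fold change of the 9 genes came to 0.66 over R7-I and to 0.91 over R7-III, while over all genes tested it was 0.17 and 0.12.

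That general shift depended on how the libraries were scaled. Of all genes called between R7-II and R7-I, 72.4% were higher in R7-II with TPM as deposited and 46.2% after each library was divided by a median-of-ratios factor, which brought the median of all genes to -0.0013. Between R7-II and R7-III the split moved from 66.4% to 47.0%. With this scaling 8 of the 9 genes passed with R7-II above R7-I, beside 25.2% of all genes tested, and 7 of 9 against R7-III, beside 25.0%. Tsc2 was the gene lost in the first comparison, and Tsc2 and Inpp5d were lost in the second. The median log2 fold change of the 9 genes was then 0.47 and 0.78. In the same scaled values 8 of 9 genes had every R7-II library above the other 6, beside 28.5% of all genes tested, the exception being Tsc2.

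**Figure D1:**
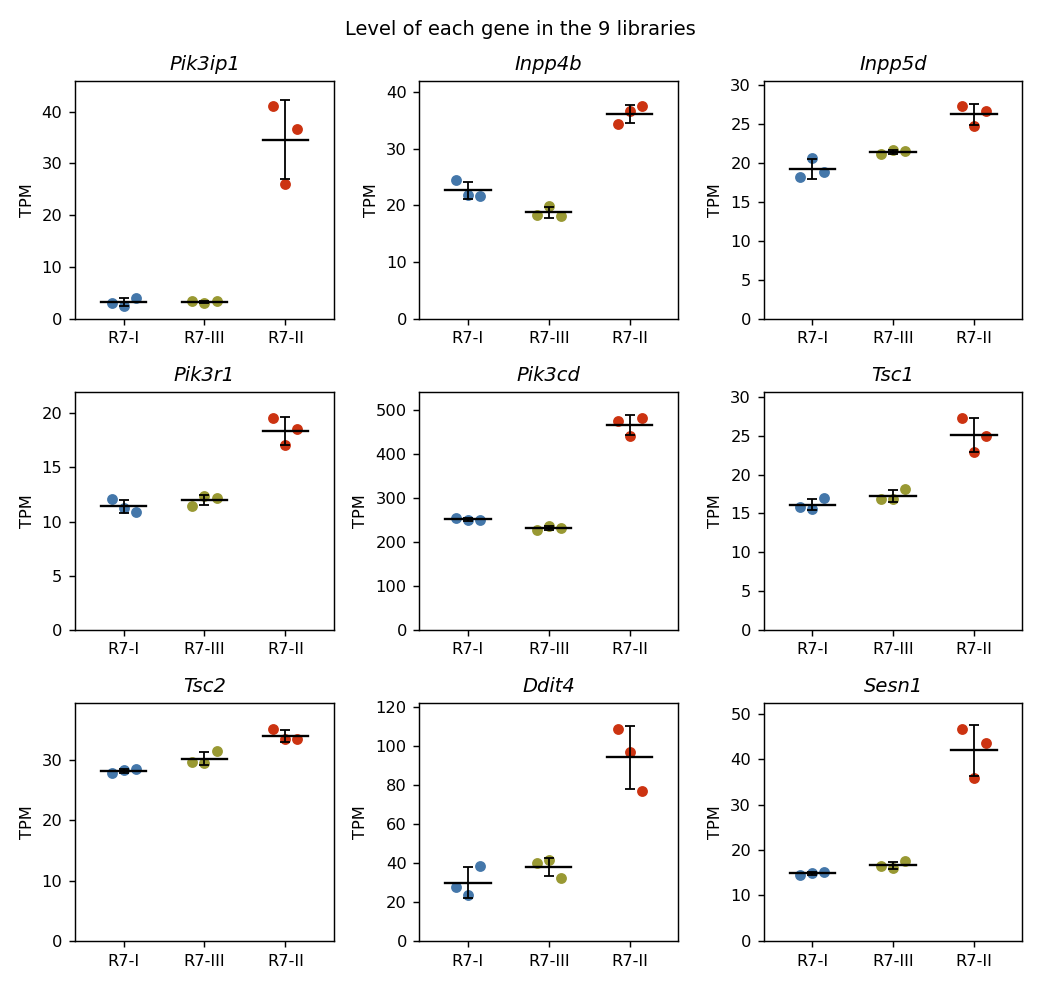
TPM (vertical axis, from 0) of each of the 9 genes in the libraries of R7-I, R7-III and R7-II. Points are single libraries, the horizontal line is the mean and the bar is ± 1 SD (n = 3). The R7-II points lie above all others in each panel, by a wide gap for Pik3ip1, Ddit4 and Sesn1 and a narrow one for Tsc2.

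Pik3ip1 encodes a transmembrane protein that binds the catalytic subunit of PI3K and lowers its activity, and in T cells it dampens the response to antigen. Replicates 1, 2 and 3, in that order here and below, held 40.97, 26.1 and 36.7 TPM for R7-II, 3.08, 2.46 and 3.97 TPM for R7-I and 3.38, 2.99 and 3.36 TPM for R7-III. The gene was thus low in both R7-I and R7-III, whose libraries overlapped, and high in each R7-II library, the lowest of which was 6.56 times the highest of the other 6. Averaged over 3 libraries, R7-II had 34.6 ± 7.68 TPM, R7-I had 3.17 ± 0.759 TPM and R7-III 3.24 ± 0.2196 TPM (± SD throughout). This made Pik3ip1 the member with the largest fold, 10.9 times R7-I and 10.7 times R7-III by the ratio of mean TPM. On the log2(TPM + 1) scale, which understates changes of genes with low values, the difference was 3.08 over R7-I and 3.05 over R7-III (standard error, SE, 0.164, adjusted p = 1.36e-07 and 1.67e-07, limma). Ordered by this difference, Pik3ip1 stood at place 12 of 11330 genes against R7-I and at place 11 against R7-III. Median-of-ratios scaling left both differences at 2.92.

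The phosphatases come next in the route. Inpp5d encodes SHIP1, which removes a phosphate from PIP3, and Inpp4b encodes an enzyme that acts on the product of SHIP1. The R7-II libraries had 34.4, 36.6 and 37.4 TPM of Inpp4b, those of R7-I had 24.4, 21.8 and 21.6 TPM and those of R7-III 18.3, 19.8 and 18.03 TPM. Here all 3 clones were apart, with R7-III the lowest and no overlap between any pair. The log2 fold change of Inpp4b in R7-II was 0.66 over R7-I and 0.91 over R7-III (SE 0.0609, adjusted p = 5.58e-06 and 5.62e-07, limma). Inpp5d in the R7-II libraries came to 27.2, 24.7 and 26.7 TPM, against 18.2, 20.6 and 18.8 TPM in those of R7-I and 21.1, 21.6 and 21.5 TPM in those of R7-III. It also separated the clones, but in another order, with R7-I the lowest, and the lowest R7-II library was only 1.15 times the highest of the others. Its log2 fold change was 0.43 over R7-I and 0.28 over R7-III (SE 0.0576, adjusted p = 7.57e-05 and 0.00146, limma). After median-of-ratios scaling these values were 0.25 and 0.15, and the second no longer passed (adjusted p = 0.0227, limma). For Inpp4b the scaled values were 0.47 and 0.78, both past the threshold.

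Pik3cd and Pik3r1 encode the kinase and its partner. Class I PI3K works as a dimer in which the p85α regulatory subunit, a product of Pik3r1, stabilises p110δ, holds its activity down and docks it to phosphorylated receptors. For Pik3cd the values were 473, 440.2 and 482 TPM in R7-II cells, 253, 249 and 249.8 TPM for R7-I and 228, 235 and 230.3 TPM for R7-III, the highest level of the 9 genes in every library. Replicates lay close together, R7-II was far above the rest, and R7-III was below R7-I with no overlap. For Pik3cd the log2 fold change was 0.89 over R7-I and 1.01 over R7-III (SE 0.0342, adjusted p = 2.58e-08 and 3.17e-08, limma). With median-of-ratios scaling it was 0.70 and 0.87. The R7-II libraries had 19.6, 17.1 and 18.5 TPM of Pik3r1, those of R7-I had 12.1, 11.2 and 10.9 TPM and those of R7-III 11.4, 12.4 and 12.2 TPM. R7-I and R7-III overlapped for Pik3r1 and R7-II was above both. Its log2 fold change was 0.64 over R7-I and 0.58 over R7-III (SE 0.0668, adjusted p = 1.22e-05 and 2.86e-05, limma), and 0.47 and 0.45 with median-of-ratios scaling.

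Tsc1 and Tsc2 encode hamartin and tuberin, partners in the TSC complex that turns Rheb off. In R7-II replicates 1 to 3 Tsc1 had 27.4, 22.96 and 24.96 TPM, in R7-I replicates 15.9, 15.6 and 16.9 TPM and in R7-III replicates 16.9, 16.8 and 18.2 TPM. Its R7-II libraries were the highest, and those of R7-I and R7-III overlapped. The log2 fold change of Tsc1 was 0.60 over R7-I and 0.51 over R7-III (SE 0.0675, adjusted p = 2.07e-05 and 7.29e-05, limma), or 0.42 and 0.38 with median-of-ratios scaling. The R7-II libraries had 35.1, 33.4 and 33.4 TPM of Tsc2, those of R7-I had 27.8, 28.3 and 28.5 TPM and those of R7-III 29.7, 29.4 and 31.4 TPM. The order was R7-II, R7-III, R7-I with no overlap, but the gap was small, the lowest R7-II library being 1.06 times the highest of the others. Of the 9 genes Tsc2 changed least, by a log2 fold change of 0.26 over R7-I and 0.17 over R7-III (SE 0.0432, adjusted p = 3.21e-04 and 0.00566, limma). These values are near the medians of all genes, and after median-of-ratios scaling they were 0.079 and 0.037 with neither past the threshold (adjusted p = 0.0656 and 0.358, limma). The call against R7-III was also lost without R7-II replicate 1 or 3 and without R7-III replicate 1 or 2, with an adjusted p of at most 0.0278 (limma) over all libraries left out in turn.

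Stress and nutrients reach mTORC1 through Ddit4 and Sesn1, among others. Ddit4 encodes REDD1, which is induced by hypoxia, glucocorticoids and other stress and inhibits mTORC1 through the TSC complex. The R7-II libraries had 109, 96.7 and 76.6 TPM of it, those of R7-I had 27.8, 23.5 and 38.6 TPM and those of R7-III 39.7, 41.5 and 32.4 TPM. R7-I and R7-III overlapped widely, and replicates varied more than for most other members, yet the lowest R7-II library was 1.85 times the highest of the other 6. The log2 fold change was 1.64 over R7-I and 1.28 over R7-III (SE 0.172, adjusted p = 1.31e-05 and 7.86e-05, limma), and 1.45 and 1.15 with median-of-ratios scaling. Sesn1 encodes sestrin 1, a p53 target that restrains mTORC1 by way of the GATOR complexes when leucine is scarce. Its libraries held 46.7, 35.8 and 43.5 TPM for R7-II, 14.5, 15.03 and 15.2 TPM for R7-I and 16.6, 16.01 and 17.5 TPM for R7-III. R7-II was high, and R7-III was slightly above R7-I with no overlap. Its log2 fold change was 1.43 over R7-I and 1.27 over R7-III (SE 0.0837, adjusted p = 2.53e-07 and 5.15e-07, limma), and 1.25 and 1.14 with median-of-ratios scaling.

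**Figure D2:**
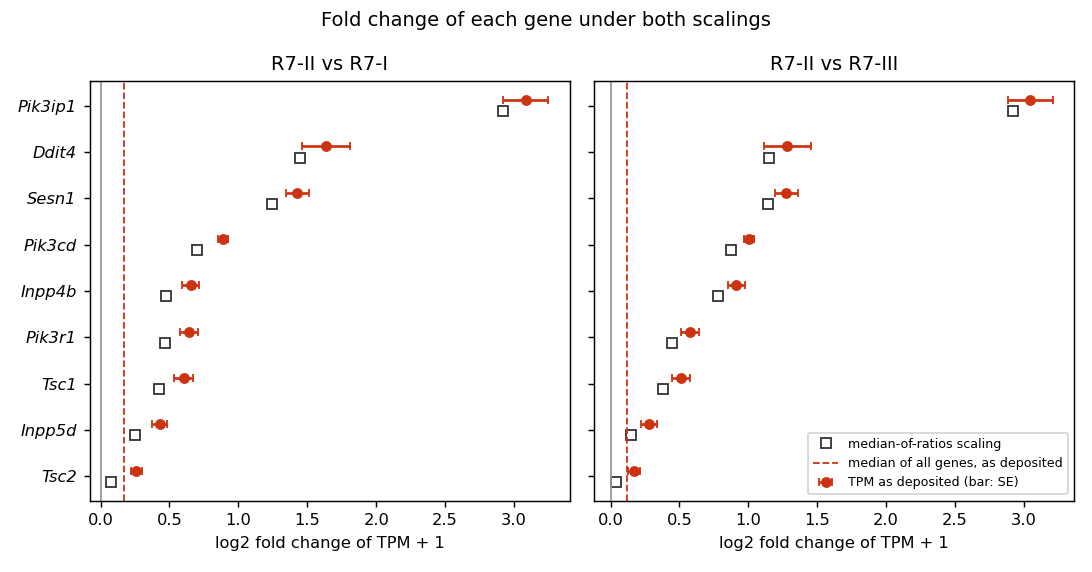
Log2 fold change of TPM + 1 (horizontal axis) of the 9 genes in R7-II against R7-I (left) and R7-III (right). Filled points with bars are TPM as deposited ± 1 standard error, open squares are values after median-of-ratios scaling, and the dashed line is the median of all genes tested, 0.17 and 0.12. Pik3ip1 lies farthest to the right and Tsc2 nearest to the dashed line.

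R7-III and R7-I are the clones of intermediate and highest affinity in the study's ordering from purified proteins. Between them 6.96% of all genes tested were called higher and 1.45% lower in R7-III (limma, adjusted p of at most 0.01). Of the 9 genes 0 passed. At an unadjusted p under 0.05 there were 3, namely Inpp4b, Inpp5d and Pik3cd. Inpp4b had a log2 fold change of -0.26 in R7-III (adjusted p = 0.0152, limma). For Pik3cd it was -0.12 (adjusted p = 0.0378, limma), and for Inpp5d 0.15 (adjusted p = 0.101, limma). Of all genes called here 82.8% were higher in R7-III with TPM as deposited and 56.6% after median-of-ratios scaling. With that scaling Pik3cd passed as lower in R7-III (-0.17, adjusted p = 0.00478, limma), and it then was 1 of 9 genes called lower beside 3.72% of all genes tested, with 0 of 9 called higher beside 4.86%. The libraries of R7-III were all below those of R7-I for 2 of 9 genes, Inpp4b and Pik3cd, as for 12.4% of all genes tested. They were all above for 3 of 9, Inpp5d, Tsc2 and Sesn1, as for 29.5%. After median-of-ratios scaling these counts were 2 of 9 beside 22.7%, and 2 of 9, without Inpp5d, beside 20.5%. Ddit4 had a log2 fold change of 0.35 (adjusted p = 0.188, limma), Sesn1 of 0.15, Tsc1 of 0.094, Tsc2 of 0.093, Pik3r1 of 0.067 and Pik3ip1 of 0.04, where the sign turned for Pik3ip1 with median-of-ratios scaling and for Pik3r1 with quantile normalization. A p that misses the threshold does not show that the levels were equal.

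Of the members, 3 pairs act on each other or on successive steps. Their ratio within a library does not change when the whole library is divided by a common factor, as in median-of-ratios scaling. Quantile normalization is not a division of that kind. The ratio of Pik3r1 to Pik3cd TPM was 0.0415, 0.0387 and 0.0385 in the R7-II libraries, 0.0477, 0.0452 and 0.0437 in R7-I, and 0.0503, 0.0525 and 0.0530 in R7-III. It was lowest in R7-II and highest in R7-III, with no overlap between clones. R7-II thus exceeded the other clones by more in the message of the catalytic subunit than in that of the regulatory one. The log2 ratio in R7-II differed from that of the other 6 libraries by -0.30 (exact two-sided permutation test, p = 0.0238, adjusted p = 0.120 over 12 ratio tests). Tsc1 over Tsc2 was 0.778, 0.688 and 0.747 in R7-II, 0.571, 0.552 and 0.595 in R7-I, and 0.568, 0.573 and 0.579 in R7-III. R7-I and R7-III were alike in range and R7-II was above both, with a difference in log2 ratio of 0.36 (exact two-sided permutation test, p = 0.0238, adjusted p = 0.120). Inpp4b over Inpp5d was 1.26, 1.48 and 1.40 in R7-II, 1.34, 1.06 and 1.15 in R7-I, and 0.869, 0.918 and 0.841 in R7-III. For this ratio R7-II overlapped R7-I while R7-III was below both, and R7-II differed from the other 6 by 0.44 (exact two-sided permutation test, p = 0.0476, adjusted p = 0.120). The smallest p these tests allow is 0.0238 for R7-II against 6 libraries and 0.1 between a pair of clones, so no ratio could pass 0.05 after adjustment over the 12 tests, where the smallest possible adjusted p is 0.0952.

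The relatives of Pik3cd and Sesn1 were followed as well. Among the class I catalytic subunits, Pik3cd made up 93.2 ± 0.359% of the summed TPM for R7-II, 90.1 ± 0.0788% in R7-I and 89.3 ± 0.215% in R7-III. Pik3ca, which encodes p110α, was at 27.6 ± 1.79 TPM in R7-II cells, with 21.3 ± 0.509 for R7-I and 20.98 ± 0.688 for R7-III. Pik3cb, for p110β, was at 2.12, 2.29 and 1.88 TPM in R7-II, R7-I and R7-III. Pik3cg, which encodes p110γ of the G protein-coupled branch, was at 4.41, 3.86 and 4.92 TPM. Of these relatives Pik3ca was higher in R7-II (log2 fold change 0.36 over R7-I and 0.38 over R7-III, adjusted p = 1.79e-04 and 1.28e-04, limma), and neither Pik3cb nor Pik3cg passed in either comparison. With median-of-ratios scaling Pik3ca changed by 0.18 and 0.25, and with quantile normalization its call against R7-I was lost (0.12, adjusted p = 0.0487, limma). Of the other sestrins 1 was called higher. Sesn3 was at 79.5 ± 3.69 TPM in R7-II cells, with 42.4 ± 1.82 for R7-I and 44.9 ± 3.66 for R7-III, with a log2 fold change of 0.89 over R7-I and 0.81 over R7-III (adjusted p = 6.40e-07 and 1.13e-06, limma). Sesn2 was at 35.4 ± 2.70 TPM in R7-II cells, with 33.4 ± 1.98 for R7-I and 34.9 ± 1.69 for R7-III and did not pass (0.081 and 0.021, adjusted p = 0.285 and 0.791, limma), with -0.10 and -0.11 after median-of-ratios scaling. Sesn1 accordingly held 26.7 ± 2.23% of the summed sestrin TPM in R7-II, 16.4 ± 0.739% in R7-I and 17.4 ± 1.37% in R7-III, and Sesn2 held 22.6 ± 1.68%, 36.8 ± 1.02% and 36.1 ± 0.115%.

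The rest of the route was taken as 11 lists, of which 119 of 127 genes were tested. The lists were also chosen with earlier results of these data known. Together they had 73 genes higher and 14 lower for R7-II against R7-I, with a median log2 fold change of 0.30, and 63 higher and 15 lower against R7-III, with a median of 0.25. Beside the 40.6% and 35.6% of all genes tested that were higher, 15.5% were lower for R7-II against R7-I and 18.0% against R7-III. With median-of-ratios scaling the lists had 53 and 23, and 48 and 21, with medians of 0.12 and 0.14, where 29.4% and 28.2% of all genes were lower. Shares within a single list are to be read against these, and several lay near them. In what follows, a pair of log2 fold changes or counts gives R7-II against R7-I first and against R7-III second.

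Upstream of PIP3, 2 of 6 other class I PI3K subunits tested were higher in R7-II in each comparison and 0 lower, with a median log2 fold change of 0.25 over R7-I and 0.17 over R7-III that was 0.089 and 0.086 with median-of-ratios scaling and turned to -0.098 and -0.041 with quantile normalization. Pik3r5, which encodes the p101 adaptor of PI3Kγ, was 1 of them (0.69 and 0.71, adjusted p = 6.51e-05 and 6.12e-05, limma), and Pik3ca the other. Of the adaptors and costimulators that bring PI3K to the membrane, 4 of 6 tested were higher in each comparison and 0 lower, with medians of 0.65 and 0.55, and with median-of-ratios scaling 4 and 3 were higher, with medians of 0.52 and 0.44. Icos, a costimulator with a strong PI3K docking site, was at 79.6, 37.4 and 34.3 TPM in R7-II, R7-I and R7-III. Cd28, the most abundant of this list, was at 242, 167 and 176 TPM, and Irs2, an insulin receptor substrate, at 9.65, 4.53 and 3.79 TPM in the same order. All of Icos, Cd28 and Irs2 passed in both comparisons with an adjusted p of at most 4.13e-05 (limma).

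Other phosphoinositide phosphatases were mixed. Against R7-I 5 of 9 were higher and 0 lower, and against R7-III 4 were higher and 1 lower, with medians of 0.27 and 0.22, but with median-of-ratios scaling 3 were higher and 1 lower, and then 1 higher and 3 lower, with medians of 0.088 and 0.10. Inpp5k, for the phosphatase SKIP, was at 47.2 ± 2.57 TPM in R7-II cells, with 16.7 ± 1.003 for R7-I and 18.8 ± 0.3502 for R7-III, a log2 fold change of 1.44 and 1.28 (adjusted p = 2.79e-08 and 7.09e-08, limma). Inpp4a, the paralog of Inpp4b, changed by 0.53 and 0.36, and its call against R7-III was lost with median-of-ratios scaling (0.24, adjusted p = 0.0105, limma). Inpp5b passed against R7-I (0.27) and not against R7-III (-0.074), and with median-of-ratios scaling it passed only as lower than in R7-III (-0.20).

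Downstream, 6 of 9 genes of the AKT branch were higher and 2 lower compared with R7-I, and 5 higher and 3 lower compared with R7-III, with medians of 0.33 and 0.175, and with median-of-ratios scaling 4 were higher and 3 lower in each comparison, with medians of 0.14 and 0.042. Sgk1, a kinase related to AKT, was at 15.3, 5.17 and 4.60 TPM in R7-II, R7-I and R7-III (1.38 and 1.52, adjusted p = 1.06e-05 and 5.77e-06, limma). Pdpk1, whose product PDK1 activates AKT, changed by 0.38 and 0.40. Akt1 was lower (-0.18 and -0.32) and Akt2, the most abundant of the list, higher (0.33 and 0.29), each past the threshold under both scalings. Phlpp2, a phosphatase that resets AKT, was lower by the same test (-0.40 and -0.74). Gsk3a, a kinase that AKT inhibits, was higher by 0.14 and 0.18, a difference that median-of-ratios scaling turned to -0.047 against R7-I and 0.042 against R7-III, with neither called.

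The genes of both mTOR complexes had medians near those of all genes, and Rictor stood out from them. Of 10 genes tested for these complexes, Rheb and the third TSC subunit, 5 were higher and 1 lower in R7-II compared with R7-I, and 5 higher and 0 lower compared with R7-III. The medians were 0.18 in both, and median-of-ratios scaling turned these to -0.0044 and 0.048 and left 2 genes higher and 1 lower, and 1 higher and 0 lower. The lower gene was Tbc1d7, the third TSC subunit, which unlike Tsc1 and Tsc2 was not higher in R7-II and is named after its values were seen. It averaged 9.02, 12.4 and 9.11 TPM in R7-II, R7-I and R7-III (-0.42 and -0.0046, adjusted p = 0.00269 and 0.9701, limma), with -0.59 and -0.12 after median-of-ratios scaling. Rictor, the subunit that defines mTORC2, was at 34.3 ± 4.27 TPM in R7-II cells, with 18.1 ± 0.771 for R7-I and 17.6 ± 0.864 for R7-III (0.88 and 0.92, adjusted p = 5.61e-06 and 4.28e-06, limma), and 0.70 and 0.79 with median-of-ratios scaling. Rhebl1, a relative of Rheb, changed by 0.59 and 0.41, the second a call lost with median-of-ratios scaling (0.29, adjusted p = 0.0167, limma). Rheb itself and Akt1s1, which encodes the mTORC1 inhibitor PRAS40, were the most abundant, at 65.4, 58.6 and 54.6 and at 52.7, 44.7 and 44.95 TPM in R7-II, R7-I and R7-III. Rheb passed against R7-III (0.25, lost with median-of-ratios scaling at 0.12, adjusted p = 0.0386, limma) and not against R7-I (0.15, and -0.033 when scaled), and Akt1s1 passed in both comparisons (0.23 and 0.22) but in neither with that scaling.

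Among genes of amino acid and energy sensing, 13 of 23 tested were higher and 1 lower compared with R7-I, and 10 higher and 1 lower compared with R7-III. Their medians of 0.24 and 0.090 became 0.060 and -0.042 with median-of-ratios scaling, and the counts 7 and 5, and 6 and 3. Nprl2, a subunit of the GATOR1 complex that turns the Rag GTPases off, was at 36.1 ± 1.11 TPM in R7-II cells, with 16.5 ± 1.01 for R7-I and 18.6 ± 1.48 for R7-III (1.08 and 0.92, adjusted p = 3.16e-07 and 8.54e-07, limma). Gatsl2, an older symbol of Castor2, a relative of the arginine sensor, was at 4.38, 1.45 and 1.54 TPM in R7-II, R7-I and R7-III (1.14 and 1.09). Fnip2, a partner of folliculin, was lower (-0.46 and -0.47). The most abundant were Lamtor1, a subunit of the lysosomal Ragulator, at 137, 132 and 139 TPM in R7-II, R7-I and R7-III, and Stk11, which encodes the AMPK-activating kinase LKB1, at 139.9, 105 and 110.4 TPM. Stk11 passed in both comparisons (0.41 and 0.34) and Lamtor1 in neither (0.055 and -0.018), although with median-of-ratios scaling Lamtor1 was called lower against R7-III (-0.15).

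Of 9 mTORC1 substrates tested, 7 were higher and 1 lower compared with R7-I, and 6 higher and 1 lower compared with R7-III, with medians of 0.26 and 0.44, and 4 higher and 2 lower, and 4 and 1, with median-of-ratios scaling, which gave medians of 0.081 and 0.32. Lpin1, for the phosphatidate phosphatase lipin 1, was at 11.6, 3.41 and 3.84 TPM in R7-II, R7-I and R7-III (1.501 and 1.37, adjusted p = 2.76e-06 and 5.39e-06, limma). Maf1, a repressor of RNA polymerase III that mTORC1 inactivates, was at 121 ± 9.39 TPM in R7-II cells, with 60.7 ± 3.94 for R7-I and 65.2 ± 2.76 for R7-III (0.98 and 0.87). Eif4ebp1, which encodes a translation repressor, was the most abundant in R7-I and R7-III and was lower in R7-II (-0.40 and -0.54). In R7-II cells Eif4ebp2 was the most abundant, at 164.8 TPM beside 136.4 TPM of Eif4ebp1. Eif4ebp2 was called against R7-I only (0.16, beside 0.10 against R7-III, adjusted p = 0.03501, limma), and both of its signs turned with median-of-ratios scaling.

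Metabolic genes known to depend on mTORC1 had more lower than higher calls. Of 15 tested, 9 were lower and 3 higher in R7-II compared with R7-I, and 8 lower and 2 higher compared with R7-III, with medians of -0.19 and -0.17, where 15.5% and 18.0% of all genes tested were lower. With median-of-ratios scaling 10 were lower and 2 higher, and 9 and 2, beside 29.4% and 28.2% of all genes lower, and the medians were -0.37 and -0.31. Hk2, for the glycolytic enzyme hexokinase 2, was at 39.2 ± 1.88 TPM in R7-II cells, with 70.9 ± 3.62 for R7-I and 65.5 ± 1.69 for R7-III (-0.84 and -0.73, adjusted p = 2.25e-07 and 5.51e-07, limma). Psat1, an enzyme of serine synthesis, was at 241, 434 and 437 TPM in R7-II, R7-I and R7-III (-0.85 and -0.86). Ldha, for lactate dehydrogenase A, was at 1241, 1800.0 and 1943 TPM (-0.54 and -0.65). The lipid genes of the list differed from these, since Srebf1, a master regulator of lipid synthesis, and the desaturase Scd2 were higher (Srebf1 0.51 and 0.44, Scd2 0.92 and 0.73).

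**Figure D3:**
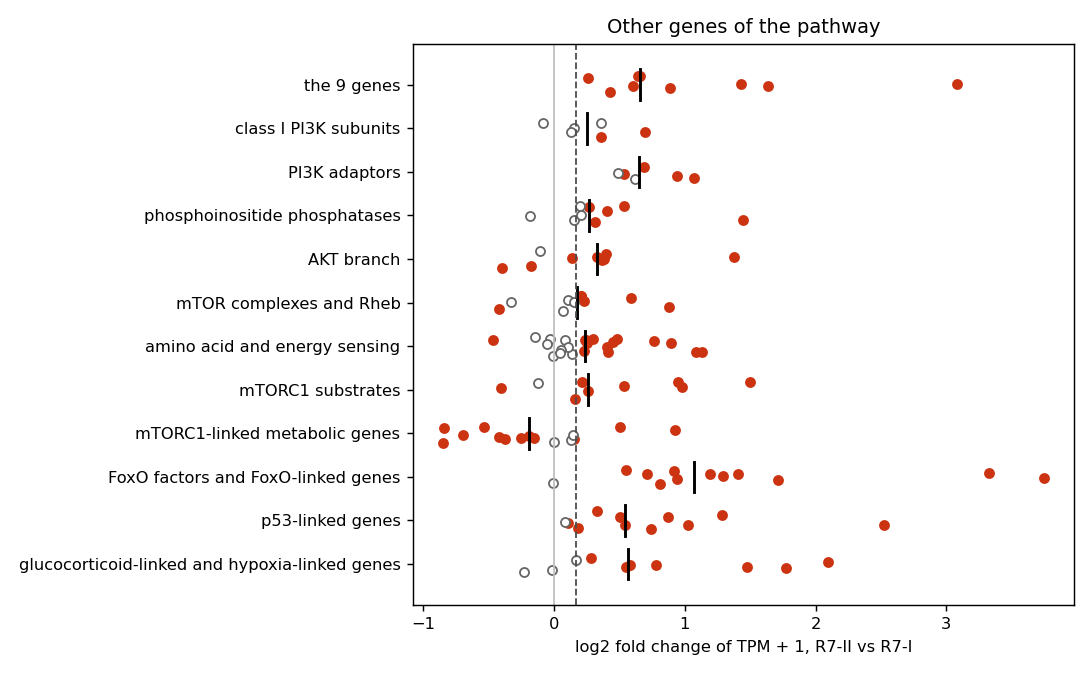
Log2 fold change of TPM + 1 in R7-II against R7-I (horizontal axis) of the 9 genes and of the tested genes in 11 lists. Filled points passed an adjusted p of 0.01 in limma, open points did not, black bars are medians and the dashed line is the median of all genes, 0.17. The metabolic genes lie mostly to the left of the line, and the FoxO-linked genes to its right.

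FoxO factors are held in check by AKT, and of the FoxO list 11 of 12 were higher and 0 lower compared with R7-I, and 11 higher and 1 lower compared with R7-III, with medians of 1.07 and 1.14 and the same counts with median-of-ratios scaling, at medians of 0.91 and 1.01. S1pr1, the receptor for exit from lymphoid organs, averaged 38.5, 1.87 and 1.44 TPM in R7-II, R7-I and R7-III (3.75 and 3.98, adjusted p = 1.84e-07 and 1.50e-07, limma). Klf2, the factor that induces it, averaged 102, 9.14 and 9.36 TPM (3.33 and 3.30). Tcf7, a factor of naive and memory cells, was at 481, 180.0 and 183 TPM in R7-II, R7-I and R7-III, and Ccr7, the lymph node homing receptor, at 1172, 801 and 684 TPM.

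Sesn1 is a target of p53, and of 11 other genes linked to p53, Trp53 itself included, 10 were higher and 0 lower compared with R7-I, and 7 higher and 0 lower compared with R7-III, with medians of 0.54 and 0.60. Median-of-ratios scaling left 8 and 7 higher, with medians of 0.35 and 0.46. Trp53inp1 was at 106 ± 18.9 TPM in R7-II cells, with 17.7 ± 4.48 for R7-I and 18.6 ± 1.62 for R7-III (2.53 and 2.43, adjusted p = 3.81e-07 and 4.70e-07, limma). Phlda3, whose product competes with AKT for membrane lipids, changed by 1.28 and 0.96. Trp53 itself was at 265, 210.4 and 210.0 TPM in R7-II, R7-I and R7-III, and Bax, the most abundant, at 445, 390.4 and 399.5 TPM, with no call for Bax after median-of-ratios scaling. Of 10 genes linked to glucocorticoids or hypoxia, which induce Ddit4, 7 were higher and 0 lower in each comparison, with medians of 0.57 and 0.55, and 6 and 7 were higher and 1 lower after median-of-ratios scaling, with medians of 0.38 and 0.42. Tsc22d3, which encodes the glucocorticoid-induced leucine zipper protein, was at 66.1, 14.5 and 11.1 TPM in R7-II, R7-I and R7-III (2.09 and 2.45, adjusted p = 8.20e-07 and 3.01e-07, limma). Pdk1, pyruvate dehydrogenase kinase, changed by 1.78 and 1.55, Zfp36l2 by 0.55 and 0.61, and Per1 by 0.28 and 0.37. Median-of-ratios scaling removed the call for Per1 against R7-I (0.10, adjusted p = 0.142, limma). Fkbp5 (0.17 and -0.035), Vegfa (-0.23 and -0.11) and Egln3 (-0.013 and -0.25), named after their values were seen, passed in neither comparison. With median-of-ratios scaling Vegfa was called lower against R7-I (-0.41) and Fkbp5 lower against R7-III (-0.17).

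Between R7-III and R7-I the 11 lists together held 5 genes called higher and 2 lower of 119 tested, beside 6.96% and 1.45% of all genes tested, with a median of 0.061 beside 0.045 for all genes. These shares lie near or below those of all genes. Among the other phosphatases 3 were higher in R7-III, and in the AKT branch 2. The 2 lower genes were Tfe3, of the mTORC1 substrates, and Ccng2, of the FoxO list, both named after their values were seen.

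For each of the 9 genes, the pair of other genes with the most similar profile was found by Pearson correlation of log2(TPM + 1) over the 9 libraries, among 8828 genes with a mean TPM of at least 5. As the libraries of R7-II lie apart from the others for many genes, these values mainly describe that separation. Nearest to Pik3ip1 were Fam189b (r = 0.999) and Rbm5 (r = 0.998). Inpp4b was closest to Gpr18 (r = 0.994) and Wipf2 (r = 0.989), and Inpp5d to Sugp1 (r = 0.994) and Arrdc2 (r = 0.994). Profiles like Pik3cd were those of Tcp11l2 (r = 0.999) and Elmsan1 (r = 0.998), and Pik3r1 was matched by Zscan26 (r = 0.997) and Arid4a (r = 0.996). Tsc1 lay nearest to Ncstn (r = 0.998) and March7 (r = 0.997) and Tsc2 to Thap3 (r = 0.996) and Zfp664 (r = 0.994). The profile of Ddit4 resembled those of Bbc3 (r = 0.992) and Sat1 (r = 0.990), the former encoding the p53-induced death factor PUMA. For Sesn1 the nearest were Mycbp2 (r = 0.999) and Rasal3 (r = 0.999).

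The sorted cells carried the markers of CD8 T cells in every library. All 8 markers were detected, and their summed TPM was 2843, 2849 and 2874 in the R7-II libraries, with 1991, 1951 and 1964 for R7-I and 2146, 2175 and 2109 for R7-III. R7-II was thus the highest for these too, and 7 of 8 markers were higher than in R7-I and 8 of 8 than in R7-III, or 6 of 8 in each comparison with median-of-ratios scaling. In R7-II, R7-I and R7-III the mean TPM was 526, 400.4 and 386 for Lck, 519, 319.8 and 326 for Cd8b1, 503, 287 and 367 for Cd3g and 429.6, 343 and 377 for Cd8a. For Cd3e it was 379.9, 269.9 and 324, for Cd3d 264, 169.5 and 194, for Cd247 173, 135 and 133 and for Cd2 61.8, 44.7 and 37.4. The activation list went the other way, with 5 of 8 genes lower and 1 higher for R7-II against R7-I, and 4 lower and 1 higher against R7-III, where 15.5% and 18.0% of all genes tested were lower. With median-of-ratios scaling 6 were lower and 0 higher, and 5 lower and 1 higher, and with quantile normalization 5 lower and 1 higher, and 2 lower and 1 higher. Of all 11330 genes tested, 3018 and 2843 were lower with quantile normalization. Its most abundant genes were Myc, at 546, 648 and 598 TPM in R7-II, R7-I and R7-III, Irf4 at 406, 502 and 469 TPM and Tfrc at 396, 394 and 445 TPM, and the summed TPM of the list was 2599, 2637 and 2535 in the R7-II libraries, 3103, 3082 and 3112 for R7-I and 2824, 2931 and 2851 for R7-III.

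Markers of other spleen cells also moved with the 9 genes. Of the B cell markers 8 of 10 were tested and all 8 passed as higher in R7-II whichever clone it was compared with. Their summed TPM was 74.7, 35.7 and 57.03 in the R7-II libraries, 11.6, 16.1 and 8.69 for R7-I and 5.18, 7.67 and 8.12 for R7-III, with Cd79b the most abundant (18.8, 3.54 and 2.23 TPM in R7-II, R7-I and R7-III), then Cd79a (14.6, 2.78 and 1.38) and Ms4a1 (6.09, 1.37 and 0.843). The 7 MHC class II genes were all higher in both comparisons, with sums of 183, 113 and 181 TPM in R7-II, 33.8, 50.3 and 32.4 TPM for R7-I and 24.3, 28.1 and 25.2 TPM for R7-III. Cd74 led this list (77.9, 17.4 and 10.6 TPM), in R7-II and R7-I before H2-Aa (30.1, 7.19 and 4.37) and H2-Ab1 (20.8, 5.27 and 3.54). In R7-III, H2-DMa (11.57, 4.39 and 4.54) was above H2-Aa and H2-Ab1. Of the 10 myeloid markers 7 were higher than in R7-I and 8 than in R7-III. The myeloid sums were 39.7, 21.97 and 85.2 TPM in R7-II. They were 1.75, 2.34 and 2.43 TPM for R7-I and 3.94, 2.77 and 4.64 TPM for R7-III. Lyz2 (32.9, 0.450 and 1.89 TPM) had the highest mean of the myeloid markers in R7-II and R7-III. Tyrobp (3.16, 0.623 and 0.610) had the highest mean in R7-I. Fcer1g (3.16, 0.217 and 0.417) equalled Tyrobp in R7-II and was below it in R7-I and R7-III. These counts depended on scaling. With median-of-ratios scaling the B cell, MHC class II and myeloid lists had 7, 5 and 7 genes higher than in R7-I, and 8, 7 and 6 higher than in R7-III. With quantile normalization they had 6, 5 and 3, and 8, 6 and 5, where 2558 and 2759 of all 11330 genes tested were higher. In bulk samples fewer cells of a type and less RNA per cell cannot be told apart.

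Markers of CD4 T cells were low and mixed. Of the 4 CD4 T cell markers 2 were tested, with 0 called against R7-I and 1 higher (Foxp3) and 1 lower (Cd40lg) against R7-III. Cd4 itself averaged 0.980 TPM for R7-II, 0.377 TPM in R7-III and less in R7-I, and its lowest R7-II library was 1.79 times the highest of the others. Foxp3, named after its values were seen, was at 0.900, 0.423 and 0.257 TPM in R7-II, R7-I and R7-III. Cd40lg, the only one of the 4 not highest in R7-II, was at 2.18, 2.65 and 5.41 TPM in that order and Zbtb7b at 0.743, 0.260 and 0.593 TPM. Their sums were 4.03, 4.56 and 5.81 TPM in R7-II, 3.36, 4.11 and 3.42 TPM for R7-I and 6.29, 5.62 and 8.01 TPM for R7-III. Of 4 NK cell markers only Eomes, which activated CD8 T cells also express, was tested, and it passed in neither comparison. The NK sums were 5.70, 5.66 and 12.97 TPM in R7-II, 11.7, 15.2 and 10.3 TPM for R7-I and 13.01, 12.6 and 10.6 TPM for R7-III, nearly all of it Eomes, and Klrb1c and Ncr1 had at most 0.0700 TPM on average and Klra8 a listed value of 0 throughout. Within R7-II, replicate 2 had the lowest sums of the B cell, MHC class II and myeloid lists, and it also had the lowest level of 7 of the 9 genes, all but Inpp4b and Ddit4, beside 49.7% of all genes tested. After median-of-ratios scaling it had the lowest level of 6 of 9, beside 34.0%. Inpp5d and Pik3cd are also expressed by B cells and myeloid cells as a matter of textbook knowledge, and the part of other cells in the levels of the 9 genes was not tested.

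On the mouse genome (GRCm38.p6, RefSeq) the 9 genes lie on 8 chromosomes. Pik3ip1 is on chromosome 11 from 3319241 to 3342971, Pik3cd on chromosome 4 from 149649168 to 149702566, and Pik3r1 on chromosome 13 from 101680761 to 101768217. Inpp4b spans 81342266 to 82134312 on chromosome 8 and Inpp5d 87620312 to 87720510 on chromosome 1. Tsc1 is on chromosome 2 from 28640993 to 28691172 and Tsc2 on chromosome 17 from 24595816 to 24632676. Ddit4 and Sesn1 share chromosome 10, from 59949675 to 59951770 and from 41810574 to 41908436. The library kit does not mark strand, so reads of overlapping genes cannot be told apart where exons coincide. In the GENCODE M21 annotation of the same build, 693 of 9620 exonic bases of Tsc2 (7.20%) coincide with exons of Pkd1 on the other strand, and Pkd1 had means of 18.5 TPM for R7-II, 12.2 TPM for R7-I and 12.8 TPM for R7-III. For Pik3ip1, 91 of 4272 exonic bases (2.13%) coincide with Gm12592, a gene with no row in the table. The other 7 genes share no exonic base with another gene there.

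Promoters were compared because the 9 genes moved together. RefSeq windows were found for 9 of 9 genes, 13 windows in all, and the 250 bases before each start were searched on both strands for 4 motifs, which are described and not taken as binding sites. The FoxO core GTAAACA was in 0 of the 13 windows and in 3.17% of all 32851 windows of the same length, the E-box CACGTG in 0 and in 6.02%, and the cAMP response element TGACGTCA in 0 and in 1.55%. The KLF motif CCNCNCCC, where N is any base, was in 9 of the 13 windows, belonging to 7 of the 9 genes. It was in 45.9% of all windows. This motif is rich in C, and the share over all windows was not matched for GC content. Absence of these letters from a window says nothing of the factor elsewhere at the gene. The windows of the 3 genes whose log2 fold change exceeded 1 in both R7-II comparisons are shown 5′ to 3′ in lower case, ending at the base before the start, with KLF matches, which can overlap, in capitals. Pik3ip1 (chr11:3330481-3330730, plus strand) has no match, Ddit4 (chr10:59951771-59952020, minus strand) has 4, and the first (chr10:41810324-41810573, plus strand) and second window of Sesn1 (chr10:41887189-41887438, plus strand) have 2 and 5. The start used for a window need not be the outer end of the gene span given above. The window of Pik3ip1 and the second window of Sesn1 lie inside those spans.
Pik3ip1: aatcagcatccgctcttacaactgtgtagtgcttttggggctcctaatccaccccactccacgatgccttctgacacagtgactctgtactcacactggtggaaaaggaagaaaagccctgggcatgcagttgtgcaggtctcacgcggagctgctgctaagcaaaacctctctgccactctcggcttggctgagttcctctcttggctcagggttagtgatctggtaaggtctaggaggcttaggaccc
Ddit4: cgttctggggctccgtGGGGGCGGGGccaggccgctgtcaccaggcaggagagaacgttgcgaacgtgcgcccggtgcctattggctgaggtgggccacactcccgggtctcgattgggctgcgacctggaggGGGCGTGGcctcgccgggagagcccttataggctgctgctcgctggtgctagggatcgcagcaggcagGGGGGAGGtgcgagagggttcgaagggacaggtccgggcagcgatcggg
Sesn1, first window: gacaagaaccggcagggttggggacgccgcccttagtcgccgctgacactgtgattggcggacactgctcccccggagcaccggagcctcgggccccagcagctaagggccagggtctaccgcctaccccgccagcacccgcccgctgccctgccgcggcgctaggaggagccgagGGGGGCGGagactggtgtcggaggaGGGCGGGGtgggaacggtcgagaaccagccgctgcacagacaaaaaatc
Sesn1, second window: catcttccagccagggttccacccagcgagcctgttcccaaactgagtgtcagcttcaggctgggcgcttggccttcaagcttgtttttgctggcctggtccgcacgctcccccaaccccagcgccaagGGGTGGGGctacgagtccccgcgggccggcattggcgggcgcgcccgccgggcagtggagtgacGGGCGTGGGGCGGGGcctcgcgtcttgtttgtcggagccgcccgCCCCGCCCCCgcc
The GC content of these windows was 53.6% for Pik3ip1, 70.0% for Ddit4 and 70.0% and 71.2% for Sesn1, beside a median of 52.4% over all windows. The window of Pik3ip1, the gene with the largest fold, was close to that median, and those of Ddit4 and Sesn1 were richer in GC.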

How the data were processed

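Poly(A) RNA of sorted, peptide-treated CD8 T cells was sequenced in 9 libraries, 3 for each clone, grouped by the clone label of each sample. The authors estimated gene levels with RSEM 1.2.11 against the RefSeq genes of mm10 and deposited them as TPM, which keeps no read counts. Their test with DESeq2 1.8.1 needs counts, which were not used here. Genes with a maximum TPM above 1 were kept, and log2(TPM + 1) was tested with limma 3.58.1 in R 4.3.3 (mean-variance trend, 9 libraries in 1 fit, Benjamini-Hochberg over 11330 genes, adjusted p at most 0.01). Ratios were tested in Python with scipy by exact permutation. Members and lists were chosen with earlier results of these data known. Within each of the 11 pathway lists, named genes were up to 2 per direction with the largest change against R7-I among those passing against both other clones, and the 2 most abundant, not all of which are printed. From the 7 cell type and activation lists the 3 most abundant were named, with every CD8 T cell marker, and the other sestrins and class I catalytic subunits were named throughout. Alternatives changed the pseudocount, filter, scaling, moderation, threshold, block and libraries.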

Additional observations from a re-analysis of the deposited data

How the results depend on the processing

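The direction of all 9 genes in R7-II relative to each other clone was the same under each of the 21 alternatives run. The number passing, 9 in both, was 8 and 7 with median-of-ratios scaling, 7 and 7 with quantile normalization, 9 and 8 with only the libraries of the clones compared, and 9 and 8 to 9 with each library left out in turn. Losses concerned Tsc2 and Inpp5d. With quantile normalization 2558 and 2759 of all 11330 genes tested were higher in R7-II, and 3018 and 2843 lower. The replicate numbers do not pair the samples, as deviations of same-numbered libraries correlated between -0.0449 and 0.0888. With the replicate number as a replicate block, 9 genes passed against R7-I and 8 against R7-III, with 8 and 7 when joined with median-of-ratios scaling, an alternative chosen after seeing the data.

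Between R7-III and R7-I, 1 gene in place of 0 passed with median-of-ratios scaling, 1 with only the libraries of the clones compared, 2 at an adjusted p of 0.05, and 0 to 1 with each library left out in turn (1 without R7-II replicate 2). Of the genes in the 11 lists together, 7 passed there, against 4 with no filter on low values, 11 with only the libraries of the clones compared, 19 at an adjusted p of 0.05, and 4 to 10 with each library left out. The log2 fold change of Pik3ip1 in that comparison turned to -0.00095 with median-of-ratios scaling, also with the block, and to -0.14 with quantile normalization, and its range was -0.087 to 0.17 when single libraries were left out. That of Pik3r1 turned to -0.034 with quantile normalization. The log2 ratio of Tsc1 to Tsc2 in R7-III minus R7-I ranged from -0.023 to 0.030 when single libraries were left out. None of these reversed values had passed a threshold. A looser threshold can only add calls, and otherwise the cause was not tested. The differences in ratio between R7-II and the other 6 libraries had the same sign with a pseudocount of 1 and with each library left out. Non-overlap of R7-II held for 8 of 9 genes with median-of-ratios scaling, an alternative also chosen after seeing the data, while leaving out a library cannot create an overlap and shows nothing here. The table holds no counts and no depth for each library, so the part of depth in the precision of low genes such as Pik3ip1 in R7-I and R7-III was not worked out.

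Of the counts within the 11 pathway lists, compared at 1.5 times the main count either way, 1270 under alternatives stayed inside that margin and 116 did not, and the latter follow as the new count with the main count in parentheses. With median-of-ratios scaling the counts for R7-II against R7-I were phosphatases 3 higher (5) and 1 lower (0), mTOR complexes 2 higher (5), amino acid sensing 7 higher (13) and 5 lower (1), substrates 4 higher (7) and 2 lower (1) and glucocorticoid and hypoxia 1 lower (0). Between R7-II and R7-III it gave phosphatases 1 higher (4) and 3 lower (1), mTOR complexes 1 higher (5), amino acid sensing 6 higher (10) and 3 lower (1) and glucocorticoid and hypoxia 1 lower (0). In R7-III against R7-I it gave AKT branch 1 higher (2) and mTOR complexes 1 lower (0). Quantile normalization gave, for R7-II against R7-I, class I subunits 1 higher (2), phosphatases 1 higher (5) and 1 lower (0), mTOR complexes 1 higher (5) and 3 lower (1), amino acid sensing 6 higher (13) and 4 lower (1) and glucocorticoid and hypoxia 1 lower (0). Between R7-II and R7-III it gave class I subunits 1 lower (0), phosphatases 1 higher (4) and 3 lower (1), mTOR complexes 1 higher (5) and 1 lower (0), amino acid sensing 4 lower (1) and glucocorticoid and hypoxia 3 lower (0). In R7-III against R7-I it gave AKT branch 0 higher (2) and mTOR complexes 1 lower (0). At an adjusted p of 0.05 the counts for R7-II against R7-I were phosphatases 1 lower (0), mTOR complexes 2 lower (1), metabolic 5 higher (3) and glucocorticoid and hypoxia 1 lower (0). In R7-III against R7-I it gave class I subunits 1 higher (0), adaptors 1 higher (0), mTOR complexes 1 lower (0), amino acid sensing 2 higher (0), substrates 1 higher (0), metabolic 1 higher (0) and 1 lower (0), FoxO 1 higher (0) and 2 lower (1) and glucocorticoid and hypoxia 1 higher (0). The block joined with that scaling gave, for R7-II against R7-I, class I subunits 1 higher (2), phosphatases 3 higher (5) and 1 lower (0), AKT branch 3 higher (6), mTOR complexes 2 higher (5), amino acid sensing 7 higher (13) and 6 lower (1), substrates 4 higher (7) and glucocorticoid and hypoxia 1 lower (0). Between R7-II and R7-III it gave phosphatases 1 higher (4) and 3 lower (1), mTOR complexes 1 higher (5), amino acid sensing 6 higher (10) and 3 lower (1) and glucocorticoid and hypoxia 2 lower (0). In R7-III against R7-I it gave AKT branch 0 higher (2). With only the clones compared the counts for R7-II against R7-III were mTOR complexes 3 higher (5) and FoxO 0 lower (1), and for R7-III against R7-I adaptors 1 higher (0), metabolic 1 higher (0) and FoxO 1 higher (0). Without the trend in limma the counts for R7-II against R7-I were phosphatases 1 lower (0), and for R7-II against R7-III metabolic 5 lower (8) and FoxO 0 lower (1). In R7-III against R7-I it gave class I subunits 1 higher (0). With no filter on low values the counts for R7-II against R7-III were FoxO 0 lower (1), and for R7-III against R7-I AKT branch 0 higher (2) and FoxO 0 lower (1). With a pseudocount of 5 the counts for R7-III against R7-I were FoxO 0 lower (1). With genes kept at 1 TPM or more throughout, the counts for R7-III against R7-I were adaptors 1 higher (0). The AKT branch had 1 higher (2) in R7-III against R7-I with a pseudocount of 0.1, with the replicate block alone and with robust moderation. Leaving out each library in turn gave, for R7-II against R7-I, mTOR complexes 0 to 1 lower (1), amino acid sensing 1 to 2 lower (1) and glucocorticoid and hypoxia 0 to 1 lower (0). For R7-II against R7-III this gave phosphatases 2 to 4 higher (4), mTOR complexes 2 to 5 higher (5), amino acid sensing 1 to 2 lower (1), metabolic 5 to 8 lower (8), FoxO 0 to 1 lower (1) and glucocorticoid and hypoxia 0 to 1 lower (0). For R7-III against R7-I this gave adaptors 0 to 1 higher (0), AKT branch 0 to 3 higher (2), mTOR complexes 0 to 1 lower (0), metabolic 0 to 1 higher (0), FoxO 0 to 1 higher (0), FoxO 0 to 1 lower (1) and p53 0 to 1 higher (0).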
